A study of Mus musculus with 24 samples.

Results

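Untreated cells of 2CD7, a clone of the ID8 mouse ovarian cancer line in which Ifnar1 had been knocked out by CRISPR, were compared with untreated empty vector (EV) cells, which went through the CRISPR procedure without losing Ifnar1. The comparison takes 3 libraries of each line, 6 of the 24 in the series, and 11698 of the 24614 genes in the table had enough counts to be tested. ID8 derives from mouse ovarian surface epithelium, and all lines are labelled as lacking Trp53 and Brca2, so both mutations are shared by the clone and its control. The cells were plated at 50000 per well, 24 hours before the start of the experiment, in medium with 4% foetal calf serum, and the untreated wells received no interferon. The other untreated lines, each with 3 libraries, were untransfected Ifnar1 wild-type cells (WT) and a second Ifnar1 knockout clone (1CF10), and each line also had 3 wells given 10000 IU/ml mouse interferon (IFN) beta for 3 hours. The replicates are technical and were handled on the same date, so the p-values measure the spread between wells. The knockout is represented here by a clone, so the loss of Ifnar1 and what is particular to that clone cannot be told apart within this comparison.

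Type I interferons bind a receptor made of the Ifnar1 and Ifnar2 chains. The kinases Jak1 and Tyk2 then phosphorylate STAT proteins such as Stat2, which join Irf9 and bind the interferon-stimulated response element (ISRE) in the promoters of antiviral genes. Many cultured cells keep a low, constant level of this signalling without added interferon, and the genes for Irf9 and Irf7 are themselves targets of the pathway.

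Levels are given as CPM, the unique molecular identifiers (UMIs, each standing for a captured mRNA molecule) of a gene scaled to the library's total. The 6 libraries held between 2458552 and 2750728 UMIs and between 15990 and 16314 detected genes, and mitochondrial transcripts took 1.198 to 1.469% of UMIs. Among EV libraries, library 3 stood apart in the interferon genes: the summed level of 54 tested interferon effector genes was 1230, 1230 and 1600 CPM in EV libraries 1 to 3 and 610, 623 and 597 CPM in the 2CD7 libraries. In WT these sums came to 892, 1550 and 1020 CPM, and 1CF10 gave 736, 681 and 704 CPM, so that WT library 2 stood above its own group as well. Counts of lower interferon effectors are given below with and without these libraries. Samples were pooled for amplification after indexing, and whether material from treated samples reached these 2 libraries was not tested.

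Ifnar1 itself was read at 11.2, 11.4 and 13 CPM in EV and at 8.36, 4.33 and 9.47 CPM in 2CD7. Every EV library lay above every 2CD7 library, but the difference did not pass the test (log2 difference -0.68 ± 0.27 SE, edgeR adjusted p = 0.102). These reads come from the 3' ends of transcripts and do not show whether a gene makes a working protein, so they check neither this knockout nor the shared Trp53 and Brca2 mutations. Ifnar2, the other receptor chain, had overlapping levels (12.8 CPM in EV and 13.6 in 2CD7 on average, adjusted p = 0.882), as did Trp53 (14 and 14.8 CPM, adjusted p = 0.913). Brca2 was lower in 2CD7, with 34.9, 26.8 and 31.3 CPM in EV against 16.7, 18.9 and 20.9 CPM, and these ranges did not overlap (log2 difference -0.73 ± 0.17, adjusted p = 0.00166). Untreated WT averaged 21 CPM and 1CF10 31.1 CPM. In the treated wells Brca2 was not called between 2CD7 and EV (-0.16 ± 0.18, adjusted p = 0.638). The change of the difference with treatment was not called either (0.57 ± 0.24, adjusted p = 0.361).

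Of the 11698 tested genes, 468 were higher in 2CD7 (4.00%) and 569 were lower (4.86%) at an adjusted p below 0.05 in edgeR's quasi-likelihood test, 8.86% in all. Changes of at least 2-fold were found for 123 higher genes (1.05%) and 131 lower genes (1.12%). The median difference over all tested genes was -0.01 on the log2 scale.

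**Figure D1:**
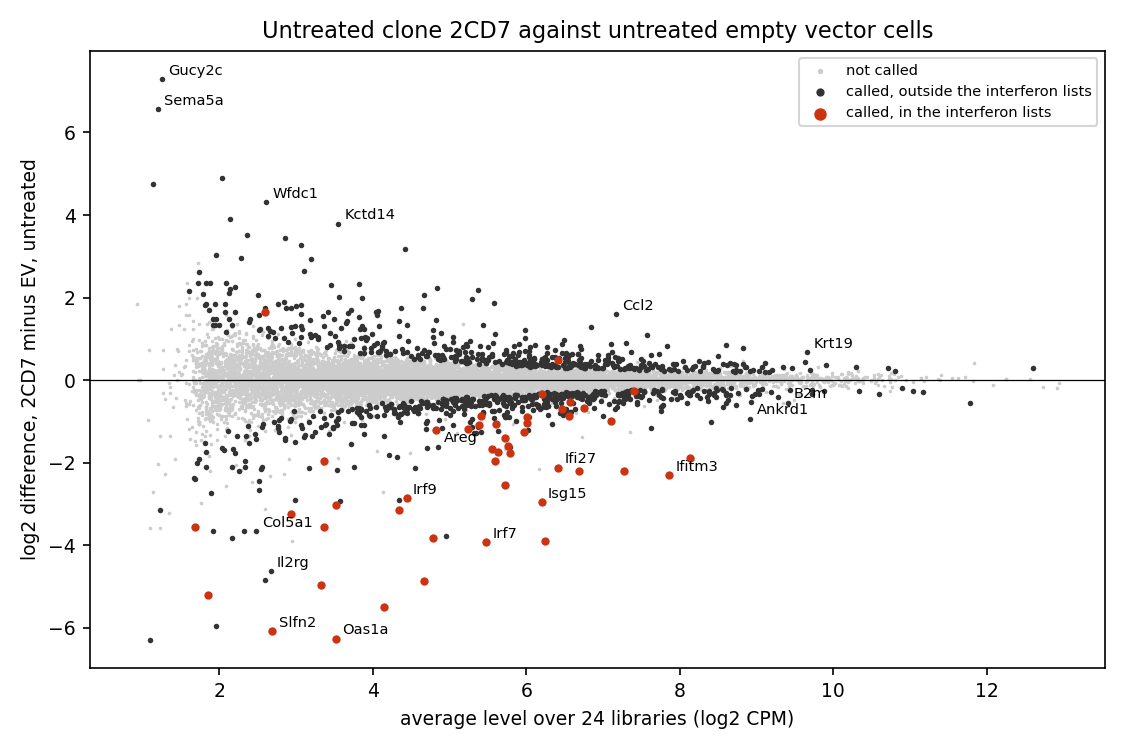
Log2 difference between untreated 2CD7 and untreated EV cells (vertical axis) against the average level over the 24 libraries in log2 CPM (horizontal axis), with a point per tested gene; grey points were not called, black points were called outside the interferon gene lists and red points were called within them. Most called interferon genes lie below 0, and Gucy2c and Sema5a lie at the top among genes of low level.

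The interferon effectors were the list with most changes: 31 of 54 tested members were lower in 2CD7, and none was higher by edgeR, DESeq2 or limma-voom or at an unadjusted p below 0.05. Their median log2 difference was -1.64, against -0.01 over all genes. Without EV library 3 the count was 20, the lowest over the alternatives tried. Among the larger falls were those of the 2'-5' oligoadenylate synthetases, enzymes that sense double-stranded RNA and switch on RNase L. Of 42 effectors with a promoter in the RefSeq table (GRCm38.p6; 250 bases before to 50 bases after the start), 20 (47.6%) held the ISRE core, which is GAAA, any 2 bases and GAAA, on either strand. Among all tested genes with a promoter the share was 3.71% (303 of 8163), and among all promoter windows of the table it was 3.44%. The stretches around the match in 4 of the interferon genes called lower are shown in the direction of transcription, with matches in capitals. TTTC, any 2 bases and TTTC is the same motif on the other strand, and all the stretches end before the transcription start.
Oas1a, chr5:120907526-120907570, minus strand: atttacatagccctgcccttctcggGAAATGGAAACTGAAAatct
Oas1g, chr5:120887614-120887656, minus strand: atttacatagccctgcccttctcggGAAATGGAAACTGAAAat
Gbp3, chr3:142559974-142560039, plus strand: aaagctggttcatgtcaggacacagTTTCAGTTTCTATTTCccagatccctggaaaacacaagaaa
Apol9a, chr15:77411099-77411164, minus strand: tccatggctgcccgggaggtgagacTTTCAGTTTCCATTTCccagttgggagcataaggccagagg
In each of these stretches 2 matches overlap. Trim30a (-4.97) and Trim12c (-4.84), lower by more than Apol9a (-3.78), held 1 match each before the start. Their calls were lost without EV library 3 (edgeR adjusted p = 0.192 and 0.219) and without each 2CD7 library in turn (0.0505 to 0.0893). Trim30a was also not called after thinning (0.0657). A match describes the letters and does not show a bound factor. Among the effectors called lower, 12 of 25 with a promoter held the core (48%), a share like that of the whole list.

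Oas1a, in the oligoadenylate synthetase cluster (GRCm38 chr5:120896256-120907521), was read at 11.6, 10.1 and 18.7 CPM in EV and at 0.364, 0 and 0 CPM in 2CD7. The ratio of EV to 2CD7 was 106 (95% counting interval 18.5 to 4210). Its neighbour Oas1g stood at 17.7, 17.4 and 23.6 CPM against 0.727, 0 and 0.394 CPM, a ratio of 51.0 (17.1 to 250). Both were clearly present in EV and nearly absent in 2CD7, although reads could be shared between these near-identical genes. Oas2, a longer member of the family, had 1.2, 1.62 and 2.44 CPM in EV and 0 UMIs in 2CD7, at least 4.57-fold lower, the bound being set by 3 UMIs in the whole group. Slfn2, a Schlafen family gene, had 1.61, 2.84 and 5.29 CPM in EV and 0 UMIs in 2CD7, at least 8.45-fold lower. In WT, Oas1a averaged 2.95 ± 3.2 CPM and Oas1g 2.22 ± 2.5 CPM (SD, n = 3), and no WT library reached the lowest EV library for this pair.

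More abundant effectors were chosen for mention after their values were seen. Ifitm3, which blocks the entry of enveloped viruses, fell from 181, 198 and 258 CPM to 41.1, 46 and 43.4 CPM (log2 difference -2.29 ± 0.30, adjusted p = 5.89e-05). Ifi27 fell from 134, 143 and 159 CPM to 30.9, 33.4 and 36.3 CPM (-2.12 ± 0.13, adjusted p = 1e-16). Neither pair of ranges overlapped. Bst2, known as tetherin for holding budding virus at the cell surface, fell from 33.3, 39.8 and 60.6 CPM to 12.4, 8.65 and 13.4 CPM (-1.95 ± 0.35, adjusted p = 0.00103). Isg15, a ubiquitin-like modifier, was read at 12, 10.1 and 32.1 CPM against 2.54, 2.36 and 1.97 CPM (-2.95 ± 0.69, adjusted p = 0.0106). Here EV library 3 carried most of the EV level, and without it the difference was -2.25 with an adjusted p of 0.0701 (0.058 when only the compared groups were fitted). Apol9a, an apolipoprotein L gene with a near-identical copy, and Rtp4, a receptor transporter protein, were lower by 3.78 and 3.91 log2 units, with every EV library above every 2CD7 library. Ifit1, an RNA cap binder, had 10.8, 12.6 and 20.3 CPM in EV and 5.09, 3.15 and 3.16 CPM in 2CD7, but missed the threshold (log2 difference -1.92, adjusted p = 0.0599).

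**Figure D2:**
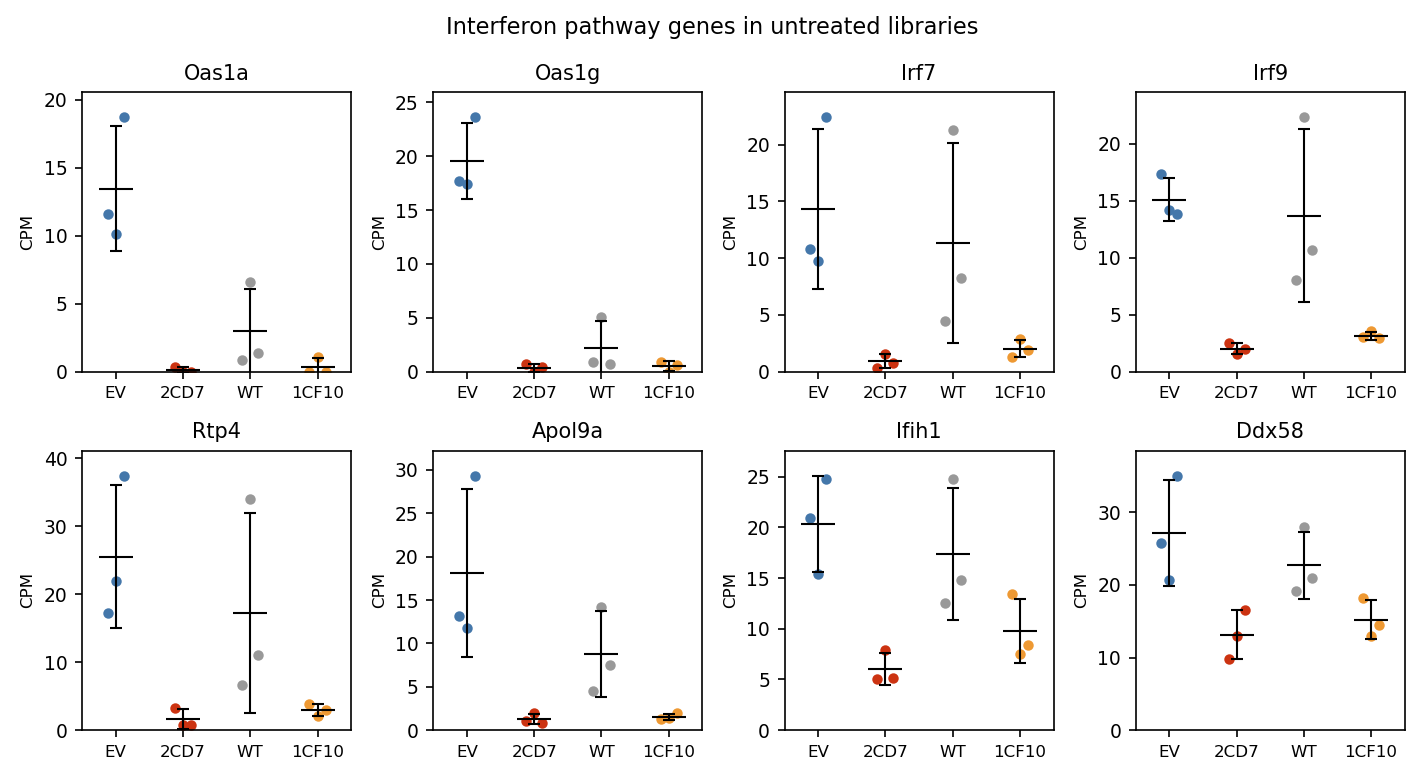
Levels in CPM of 8 interferon pathway genes in the 12 untreated libraries of the 4 lines (points, with the mean and SD of 3 libraries as bars). EV libraries lie above 2CD7 libraries in every panel, 1CF10 lies near 2CD7, and WT library 2 and, in most panels, EV library 3 are the highest of their group.

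Within the receptors, kinases, STATs and interferon regulatory factors, 5 of 24 tested members were lower and 2 were higher. The shares over all tested genes were 4.86% lower and 4.00% higher. In this list 3 were lower with DESeq2 and without any of the libraries other than 2CD7 library 1. Irf7, the factor that drives interferon alpha genes, stood at 10.8, 9.74 and 22.4 CPM in EV and 0.364, 1.57 and 0.789 CPM in 2CD7 (-3.93 ± 0.73, adjusted p = 0.00157). Irf9, a DNA-binding partner of Stat2, stood at 17.3, 14.2 and 13.8 CPM against 2.54, 1.57 and 1.97 CPM (-2.86 ± 0.35, adjusted p = 1.45e-08). The ranges of both genes were far apart, and Irf9 was not highest in EV library 3. Stat2 had 12.4, 12.2 and 14.6 CPM against 8.72, 4.72 and 10.3 CPM and missed the threshold (-0.73, adjusted p = 0.0537). Jak1 (0.03, adjusted p = 0.916), Tyk2 (0.22, adjusted p = 0.732) and Irf1 (0.03, adjusted p = 0.904) were not called. The phosphatase gene Ptpn6, a negative regulator of cytokine signalling, was higher in 2CD7, at 8, 9.44 and 8.28 CPM against 2.01, 1.62 and 4.47 CPM (1.64 ± 0.35, adjusted p = 0.000519).

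Nucleic acid sensors were lower for 5 of 18 tested members, with a median of -0.92, beside 4.86% lower over all tested genes. The count was 3 with limma-voom and without 2CD7 library 3. Ifih1, which encodes the long double-stranded RNA sensor MDA5, stood at 20.9, 15.4 and 24.8 CPM in EV and 5.09, 7.87 and 5.13 CPM in 2CD7 (-1.76 ± 0.30, adjusted p = 9.66e-05). Ddx58, which encodes the RNA sensor RIG-I, stood at 25.7, 20.7 and 35 CPM against 9.82, 13 and 16.6 CPM (-1.06 ± 0.19, adjusted p = 2.72e-05). For both sensors the 2CD7 levels lay below all EV levels but well above 0. Ifi204, of the DNA-binding PYHIN family, was lower by a similar amount (-1.04 ± 0.22, adjusted p = 0.000458). Of 14 tested interferon-inducible GTPases, which act against intracellular pathogens, 3 were lower (Gbp3, Gvin1 and Igtp). Gbp3 was read at 4.01, 3.25 and 8.13 CPM in EV and 0.364, 0 and 0 CPM in 2CD7, a ratio of 40.1 (95% counting interval 6.78 to 1630). Gvin1 had 4.42, 7.71 and 6.1 CPM against 0.364, 0 and 0.789 CPM, a ratio of 15.8 (5.08 to 79.7). The count of 3 fell to 1 when only the compared groups were fitted, without EV library 3, and without any of the 2CD7 libraries; Igtp also lost its call with a replicate block (adjusted p = 0.0717).

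Class I antigen processing was split, with 2 of 20 tested members higher and 2 lower. This count and that of the chemokines below stand beside 4.00% higher and 4.86% lower over all tested genes. B2m, the light chain of class I molecules, stood at 636, 649 and 703 CPM in EV and 434, 455 and 478 CPM in 2CD7 (-0.54 ± 0.07, adjusted p = 1.83e-08). H2-M3, a class I heavy chain that presents formylated peptides, was lower by 1.08 ± 0.26 log2 units (-1.08, adjusted p = 0.00285; 0.0557 without 2CD7 library 3). The members that were higher, Psme1 and Psme2, encode the proteasome activator PA28 and lie on chromosome 14, which is described below. Psme1 had 124, 129 and 153 CPM in EV and 210, 209 and 203 CPM in 2CD7 (0.61 ± 0.08, adjusted p = 5.47e-08). Among 15 tested chemokines and cytokines, the monocyte attractants Ccl2 and Ccl7 were higher and Cxcl12 was lower. Ccl2 stood at 38.1, 34.9 and 54.1 CPM in EV and 128, 125 and 132 CPM in 2CD7 (1.59 ± 0.11, adjusted p = 1.4e-17). Cxcl12, the ligand of Cxcr4, stood at 208, 200 and 185 CPM against 145, 136 and 129 CPM (-0.54 ± 0.08, adjusted p = 2.17e-06). Neither of these pairs of ranges overlapped. Ccl2 averaged 103 CPM in WT and 118 CPM in 1CF10, and Cxcl12 146 CPM and 142 CPM. EV thus stood apart from the other untreated lines for both genes.

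On the higher side, several genes went from near absence in EV to a clear level in 2CD7. Gucy2c, a receptor guanylate cyclase known from intestinal epithelium, was read at 6.54, 9.05 and 7.49 CPM in 2CD7 and had 0 UMIs in all EV, WT and 1CF10 untreated libraries, so it was at least 18.9-fold higher than in EV. It was called by edgeR (adjusted p = 6.23e-08) and limma-voom but not by DESeq2 (adjusted p = 0.566). Sema5a, a semaphorin of axon guidance, was read at 5.82, 4.72 and 3.16 CPM in 2CD7 and 0 UMIs in EV, at least 11.4-fold higher. Unlike Gucy2c, it was also present in WT (3.14 ± 1.8 CPM, SD, n = 3) and at 0 UMIs in 1CF10. Rab38, a small GTPase of melanosome traffic, rose from 0, 0 and 0.407 CPM to 6.54, 5.11 and 4.73 CPM, a ratio of 40.7 (6.93 to 1650).

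Larger counts stood behind the next genes. Kctd14 was read at 0.803, 1.22 and 1.63 CPM in EV and 19.3, 14.6 and 18.5 CPM in 2CD7 (3.79 ± 0.39, adjusted p = 6.3e-11). Arhgdib, a regulator of small GTPases known from blood cells, stood at 0.803, 2.43 and 2.85 CPM against 12.7, 20.8 and 23.3 CPM (3.18 ± 0.31, adjusted p = 1.59e-11). P4ha2, a collagen prolyl hydroxylase subunit, stood at 1.61, 1.22 and 0.813 CPM against 11.3, 12.6 and 17.8 CPM (3.45 ± 0.37, adjusted p = 1.9e-10). The groups were separated by several times their spread in each case. Arhgdib averaged 30.3 CPM in WT and 26.4 CPM in 1CF10, so it was low in EV alone. Mgp, the matrix Gla protein that inhibits calcification, rose by 3.27 ± 0.47 log2 units (adjusted p = 5.96e-07), and Wfdc1, a secreted whey acidic protein family member, by 4.31 ± 0.54 (adjusted p = 2.9e-08). The guidance genes Plxna4 (2.65 ± 0.38) and Sema6c (2.93 ± 0.45) were higher too, and each of these 4 genes had every 2CD7 library above every EV library. The remaining genes among the 15 with the largest rise were Tmem184a, Raet1e, Defb48, Igsf9 (3.03) and Plekha7 (2.97). Raet1e, a ligand of the NKG2D receptor, had a ratio of 17.5 (4.52 to 150). Tmem184a had 0 UMIs in EV and was at least 3.16-fold higher, a call that was lost without 2CD7 library 3 and without each EV library in turn.

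Outside the interferon pathway, 4 genes among the 15 with the largest fall had near absence in 2CD7. Il2rg, the common cytokine receptor gamma chain, was read at 16.5, 17.4 and 16.7 CPM in EV and 1.09, 0 and 0.789 CPM in 2CD7 (-4.63 ± 0.42, adjusted p = 7.66e-13). Igsf11, an adhesion molecule, and Bhlhb9, an X-linked gene, had 0 UMIs in 2CD7 and were at least 9.85-fold and 7.74-fold lower. Rorb, an orphan nuclear receptor, stood at 8.83, 8.52 and 6.1 CPM against 1.09, 0 and 0.394 CPM (-3.82 ± 0.55, adjusted p = 3.48e-07). In WT, Il2rg averaged 2.35 CPM and Igsf11 0.149 CPM, whereas Bhlhb9 averaged 4.71 CPM and Rorb 4.69 CPM. Among EV, 2CD7 and WT, EV thus stood apart for the first pair and 2CD7 for the second.

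Mesothelial and surface epithelial markers, which describe the tissue ID8 came from, were higher for 6 of 9 tested members, and none was lower by any of the 3 tools or at an unadjusted p below 0.05. Over all tested genes 4.00% were higher, and the list held 24 markers, of which 9 were tested. Their median was 0.41, and their summed level was 3410, 3470 and 3410 CPM in 2CD7 against 2670, 2760 and 2720 CPM in EV. The sums were 3350, 3190 and 3120 CPM in WT, nearer to 2CD7, and 2610, 2600 and 2620 CPM in 1CF10, nearer to EV. Against WT, 2CD7 had 2 members higher and 1 lower, with a median of -0.05. The keratin Krt19 stood at 870, 966 and 943 CPM in 2CD7 and 560, 574 and 596 CPM in EV (0.68 ± 0.06, adjusted p = 9.09e-13). Wt1, the transcription factor of mesothelium, stood at 178, 177 and 198 CPM against 131, 125 and 157 CPM (0.41 ± 0.08, adjusted p = 0.000205). Upk3b, a uroplakin of mesothelial cells, was low in both lines, at 6.18, 6.29 and 6.71 CPM against 0.803, 1.62 and 2.85 CPM (1.83 ± 0.42, adjusted p = 0.00174). Krt8 was called by a small margin (0.33, adjusted p = 0.0399), and its adjusted p rose to between 0.0514 and 0.15 without any of 5 of the libraries, every one except EV library 2. Msln, the mesothelial surface protein, was not called (326, 304 and 352 CPM in EV, 318, 348 and 355 CPM in 2CD7, adjusted p = 0.768), nor was Krt18 (adjusted p = 0.729). In bulk RNA, fewer cells that express a gene and less RNA per cell cannot be told apart. Markers of other cell types were scarce: 1 of 32 leukocyte markers, 2 of 16 endothelial and 4 of 20 fibroblast and smooth muscle markers were tested. Of these, edgeR called Cd14 alone, lower in 2CD7 (16.1, 19.1 and 20.3 CPM in EV, 6.91, 12.2 and 11.8 CPM in 2CD7), and the call was lost without 2CD7 library 1 (adjusted p = 0.0898). Cd14 is on chromosome 18, also described below.

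**Figure D3:**
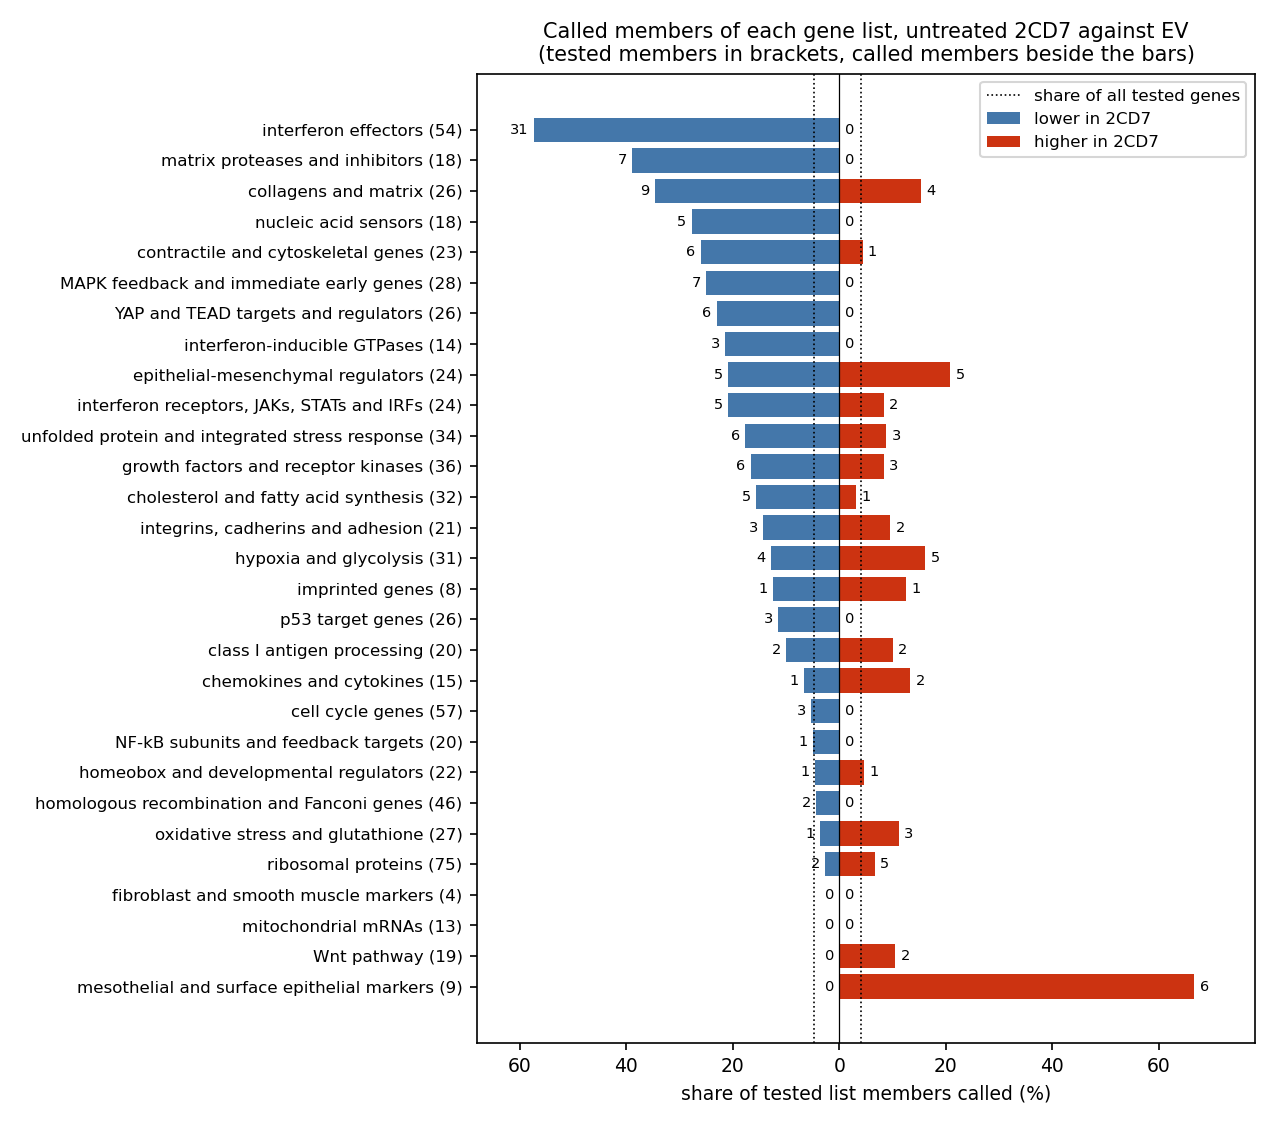
Share in percent of the tested members of each gene list with at least 4 of them that were called lower (blue, left) or higher (red, right) in untreated 2CD7 against EV, with the number of tested members in brackets and the number called beside each bar; dotted lines mark the share over all tested genes. The interferon effectors (31 of 54 lower) and the mesothelial markers (6 of 9 higher) lie farthest from these lines among the lists drawn.

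Other lower genes included growth factors, although the list as a whole was called in both directions. The epidermal growth factor receptor ligands Areg, Ereg and Hbegf were all lower. Areg stood at 51, 46.6 and 41.1 CPM in EV and 21.1, 11.4 and 12.6 CPM in 2CD7 (-1.61 ± 0.20, adjusted p = 2.78e-07). Ereg differed by -1.19 ± 0.21 (adjusted p = 0.000104) and Hbegf by -0.89 ± 0.12 (adjusted p = 1.27e-07), and no 2CD7 library reached the lowest EV library for these 3 ligands. Egfr, their receptor, missed the threshold (-0.31, adjusted p = 0.246). Of 36 tested growth factors and receptor kinases, 6 were lower and 3 higher, Fgf18 rising most (8.43, 8.11 and 8.13 CPM in EV, 22.5, 23.6 and 28 CPM in 2CD7). Their median was -0.02, and the shares over all tested genes were 4.86% lower and 4.00% higher.

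Among 28 tested MAPK feedback and immediate early genes, 7 were lower and none was higher by any of the 3 tools or at an unadjusted p below 0.05, with a median of -0.28. Those lower included the AP-1 subunits Fosl1, Jun, Fosl2 and Junb, together with Myc, Phlda1 and Klf6. Among all tested genes 4.86% were lower. Fosl1, a Fos family partner of Jun, stood at 87.9, 74.6 and 80.1 CPM in EV and 49.1, 34.2 and 46.5 CPM in 2CD7 (-0.90 ± 0.12, adjusted p = 6.23e-08). Jun stood at 147, 145 and 129 CPM against 102, 78.7 and 82.4 CPM (-0.68 ± 0.11, adjusted p = 8.2e-06). In both genes the highest 2CD7 library was the first, and it stayed below every EV library. Fosl2 lost its call without EV library 3 (adjusted p = 0.118) and without 2CD7 library 3 (0.0684). The feedback phosphatase Dusp6 (-0.25, adjusted p = 0.507) and Egr1 (-0.33, adjusted p = 0.295) were not called.

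Matrix proteases and their inhibitors, several of which are known AP-1 targets, were lower for 7 of 18 tested members, with a median of -0.26. That count was 5 with DESeq2, with a minimum count of 30 and after thinning. It was also 5 without 2CD7 library 2 or 3 or EV library 2 or 3. Among all tested genes 4.86% were lower. Plau, the urokinase gene, stood at 10, 5.68 and 10.2 CPM in EV and 1.45, 2.36 and 1.97 CPM in 2CD7 (-2.15 ± 0.39, adjusted p = 4.92e-05). Mmp13, a collagenase, stood at 40.1, 33.3 and 42.3 CPM against 20, 14.9 and 19.3 CPM (-1.09 ± 0.17, adjusted p = 2.62e-06). Mmp10, a stromelysin, stood at 120, 115 and 95.6 CPM against 71.3, 63.3 and 51.3 CPM (-0.83 ± 0.12, adjusted p = 2.93e-06). Each EV library was above each 2CD7 library in these 3 genes. The promoters of both metalloproteinases hold the AP-1 motif TGANTCA, shown in capitals within stretches that end before the start.
Mmp13, chr9:7272454-7272510, plus strand: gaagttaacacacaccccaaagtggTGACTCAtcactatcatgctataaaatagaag
Mmp10, chr9:7502254-7502310, plus strand: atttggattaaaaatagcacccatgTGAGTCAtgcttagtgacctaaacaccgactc
The motif was present in 13% of the promoters of genes called lower outside the interferon lists (46 of 354), in 8.45% of those called higher and in 5.98% of all tested genes with a promoter. Over all windows of the table the share was 7.81%. Interferon effectors held this motif in 21.4% of their promoters (9 of 42). The MAPK feedback and immediate early genes held it in 0 of 21. Whether AP-1 acts on any of these genes was not tested.

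Of 26 tested YAP and TEAD targets and regulators, 6 were lower, among them the classical targets Ankrd1 and Ccn2, and the median was -0.10. The count was 4 with DESeq2, after thinning, and without 2CD7 library 2 or 3 or EV library 1 or 2. Counts in this paragraph stand beside 4.00% higher and 4.86% lower over all tested genes. Ankrd1 stood at 526, 658 and 564 CPM in EV and 353, 286 and 279 CPM in 2CD7 (-0.93 ± 0.12, adjusted p = 1.99e-05). Ccn2, connective tissue growth factor, stood at 85.5, 110 and 105 CPM against 68.7, 53.1 and 54 CPM (-0.77 ± 0.16, adjusted p = 0.00207). Ranges did not overlap for either gene, while Yap1 itself was not called (0.20, adjusted p = 0.452). Contractile and cytoskeletal genes were lower for 6 of 23 tested members and higher for 1 (median -0.18). The members lower, among them the tubulin Tubb6 (-0.62), the actin-associated Pdlim7 (-0.45) and the microtubule-associated Map1b (-0.37), differed by -0.27 to -0.62.

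Collagens and matrix genes were lower for 9 of 26 tested members and higher for 4, with a median of -0.33. Of all tested genes, 4.86% were lower and 4.00% higher. Col5a1, a fibrillar collagen chain, was read at 14.9, 6.49 and 4.47 CPM in EV and 1.09, 0.393 and 0.394 CPM in 2CD7 (-3.66 ± 0.53, adjusted p = 6.18e-07). The basement membrane genes Col4a1 (-0.76), Lamb1 (-0.75) and Col4a2 (-0.63) were lower as well. Fibronectin (Fn1) stood at 45.8, 37.3 and 45.6 CPM against 23.6, 17.7 and 22.1 CPM (-1.02 ± 0.16, adjusted p = 2.46e-06), and thrombospondin 1 (Thbs1) differed by -1.29 ± 0.16 (adjusted p = 2.35e-08). In the other direction, Lox, which crosslinks collagen, stood at 5.62, 10.1 and 8.54 CPM in EV and 17.8, 14.6 and 18.5 CPM in 2CD7 (1.06 ± 0.22, adjusted p = 0.000531). Sparc, a matrix-binding glycoprotein, rose by 0.37 ± 0.06 from a high level (744 to 962 CPM on average, adjusted p = 2.48e-06).

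Epithelial-mesenchymal regulators moved both ways, 5 of 24 tested members higher and 5 lower. The counts in this paragraph stand beside 4.00% higher and 4.86% lower over all tested genes. Snai2, a repressor of epithelial genes, stood at 49.4, 56.4 and 48 CPM in EV and 33.1, 28.3 and 27.2 CPM in 2CD7 (-0.80 ± 0.13, adjusted p = 8.84e-06). Inhba, an activin subunit, differed by -0.89 ± 0.13 (adjusted p = 6.18e-07). The inhibitor of differentiation genes Id1, Id2 and Id3, targets of bone morphogenetic protein signalling, were higher, as was the ligand gene Bmp4. Smad7 was lower (-0.75, edgeR adjusted p = 0.00113). Bmp4 is on chromosome 14 and Smad7 on chromosome 18, both described below. Whether this signalling differed between the lines was not tested. Id1 stood at 96, 98.3 and 120 CPM in 2CD7 and 51, 70.6 and 68.7 CPM in EV (0.72 ± 0.11, adjusted p = 1.16e-06), and Bmp4 at 102, 105 and 107 CPM against 69.9, 68.6 and 74 CPM (0.56 ± 0.10, adjusted p = 1.94e-05). Of 19 tested Wnt pathway genes, only the ligand genes Wnt4 (1.61 ± 0.34) and Wnt6 (0.82 ± 0.10) were called, both higher. In the adhesion list, 2 of 21 members were higher and 3 lower, with the hyaluronan receptor Cd44 at 168, 147 and 125 CPM in 2CD7 against 228, 194 and 217 CPM in EV (-0.54 ± 0.09, adjusted p = 9.28e-06).

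Stress and metabolic lists held calls in both directions, beside 4.00% higher and 4.86% lower over all tested genes. In the unfolded protein and integrated stress response, 6 of 34 members were lower, including Atf5 and Chac1, both induced through Atf4, and 3 were higher, including the chaperone gene Hsp90b1 (0.29). Atf5 stood at 32.5, 24.3 and 28.5 CPM in EV and 15.3, 10.2 and 7.89 CPM in 2CD7 (-1.34 ± 0.20, adjusted p = 8.06e-07), and Chac1 at 30.1, 29.6 and 26 CPM against 16.7, 10.6 and 12.6 CPM (-1.10 ± 0.19, adjusted p = 1.51e-05). The lower count of that list was 2 without 2CD7 library 3. Among 31 hypoxia and glycolysis genes, 5 were higher and 4 lower, and the count lower was 0 without 2CD7 library 3. The rises included the carbonic anhydrase Car12, at 45.4, 45.2 and 41.4 CPM in 2CD7 and 18.5, 19.5 and 14.2 CPM in EV (1.33 ± 0.16, adjusted p = 6.05e-09), and the prolyl hydroxylase Egln3 (1.69 ± 0.28, adjusted p = 6.58e-06). Both of these were called under every alternative tried. Cholesterol and fatty acid synthesis had 1 of 32 members higher and 5 lower, and the latter count was 2 without 2CD7 library 2.

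Cdkn1a, the cell cycle inhibitor induced by p53 and other signals, stood at 41.8, 50.3 and 39 CPM in EV and 27.6, 20.1 and 16.2 CPM in 2CD7 (-1.03 ± 0.16, adjusted p = 2.94e-06). It was 1 of 3 lower among 26 tested p53 target genes, in cells labelled as lacking Trp53. Over all tested genes 4.00% were higher and 4.86% lower, the shares to set beside the counts in this paragraph. Only Brca2 and Bard1 were lower among 46 homologous recombination and Fanconi genes. Bard1 (-0.77, adjusted p = 0.0383) lost its call without EV library 1 (0.292) and without each 2CD7 library (0.0571 to 0.161). Bard1 was also not called by DESeq2 (adjusted p = 0.121), by limma-voom (0.0654) or without the filter on low counts (0.0511). Of 57 cell cycle genes 3 were lower, and from 2 to 7 over the alternatives. None of the 13 mitochondrial mRNAs was called by edgeR, DESeq2 or limma-voom, and 1 had an unadjusted p below 0.05. Ribosomal protein genes had 5 of 75 higher and 2 lower, with Rps24 differing most (0.44 ± 0.06). The higher count was 2 without 2CD7 library 2, EV library 1 or EV library 3. NF-kB feedback targets had 1 of 20 lower (Tnfaip2) and none higher by any of the 3 tools.

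The WT and 1CF10 cells place these differences among 4 lines. WT and 1CF10 levels are set beside the comparison because tests of 2CD7 against either share the 2CD7 libraries with it. Against WT, 170 genes were higher in 2CD7 (1.45%) and 241 were lower (2.06%), and 13 (0.111%) and 58 (0.496%) of them by at least 2-fold. Against 1CF10, 902 were higher (7.71%) and 666 lower (5.69%). Interferon effectors were lower in 2CD7 than in WT for 15 of 54 members (median -1.18) and lower than in 1CF10 for 4 (median -0.18). Without WT library 2, an alternative chosen after seeing the data, the count against WT was 9 (median -0.91). Of the genes outside the interferon lists, 4 picked after their values were seen had another order: Areg averaged 46.2 ± 5.0 CPM in EV, 15 ± 5.3 in 2CD7, 7.87 ± 4.1 in WT and 40.6 ± 8.4 in 1CF10 (SD, n = 3). Fosl1 averaged 80.9, 43.3, 19 and 87.5 CPM in the same order, and Ankrd1 582, 306, 205 and 864 CPM. Col5a1 averaged 8.61, 0.626, 0.582 and 9.99 CPM. In these 4 genes EV and 1CF10 were high and 2CD7 and WT were low. Others did not share this order: Mmp13 averaged 38.6 CPM in EV and 18.1, 18 and 21.9 CPM in 2CD7, WT and 1CF10, and Lox 8.1 CPM in EV and 17, 24.5 and 29.7 CPM. Against WT, 1CF10 had 11 of the 36 growth factors and receptor kinases higher and 8 lower. Krt19 was low in EV alone, with 576 CPM in EV and 926, 955 and 787 CPM in 2CD7, WT and 1CF10.

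**Figure D4:**
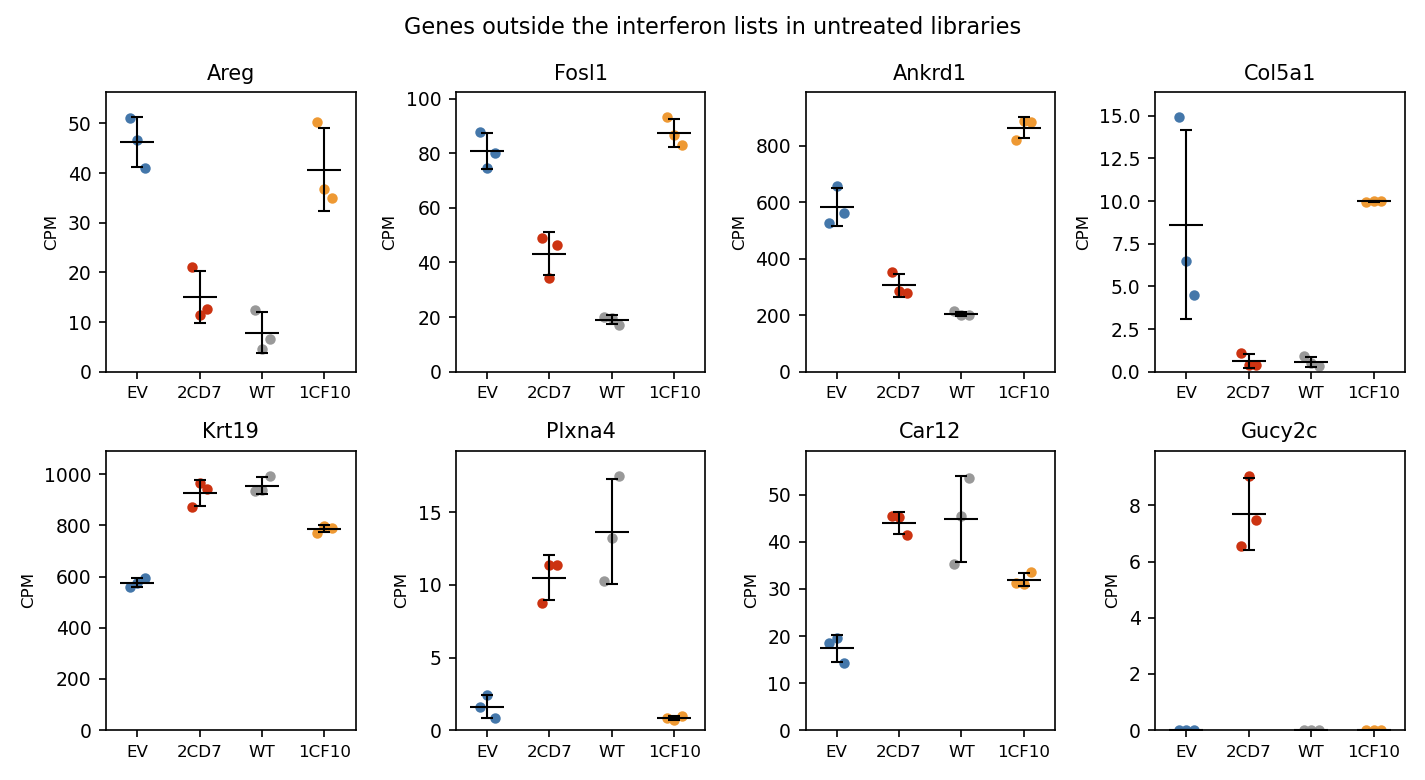
Levels in CPM of 8 genes outside the interferon lists in the 12 untreated libraries (points, with the mean and SD of 3 libraries as bars). Areg, Fosl1, Ankrd1 and Col5a1 are high in EV and 1CF10, Plxna4 is high in 2CD7 and WT, and Gucy2c is present in 2CD7 and at 0 UMIs in the other lines.

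The other clone against the other control, 1CF10 minus WT, shares no library with 2CD7 minus EV, so the called genes could be followed there. In that comparison 958 genes were higher (8.19%) and 1289 lower (11%). Of the 468 genes higher in 2CD7, 11 (2.35%) were also called higher in 1CF10 and 239 (51.1%) were called lower. Of the 569 lower genes, 71 (12.5%) were also called lower and 184 (32.3%) were called higher. Outside the interferon lists, these shares for lower genes were 9.37% and 35%. The interferon effectors kept their direction, with 19 of 54 members lower in 1CF10 than in WT and a median of -1.11. MAPK feedback and immediate early genes did not: 18 of 28 were higher in 1CF10 than in WT, with a median of 0.70. Without WT library 2, where 791 genes were higher and 1051 lower of 11866 tested, 9 of the 54 effectors were lower in 1CF10 (median -0.55) and 17 of the 28 immediate early genes were higher (median 0.76). Of the 569 genes lower in 2CD7, 49 were then also called lower in 1CF10 and 173 higher.

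Treated 2CD7 and EV cells, in wells separate from the untreated ones, gave a second measurement of the difference between the same lines. There, 812 genes were higher in 2CD7 (6.94%) and 1001 lower (8.56%). Of the 468 genes higher in untreated 2CD7, 445 (95.1%) had the same sign under treatment and 314 (67.1%) were called in the same direction. Of the 569 lower genes, 536 (94.2%) had the same sign and 351 (61.7%) were called. Over the 1037 called genes the log2 differences of the 2 conditions had a Pearson correlation of 0.87, and 0.628 over all 11698 genes; this is across genes, which are not independent replicates. Among the interferon effectors, 53 of 54 were lower in treated 2CD7 than in treated EV, with a median of -4.27.

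**Figure D5:**
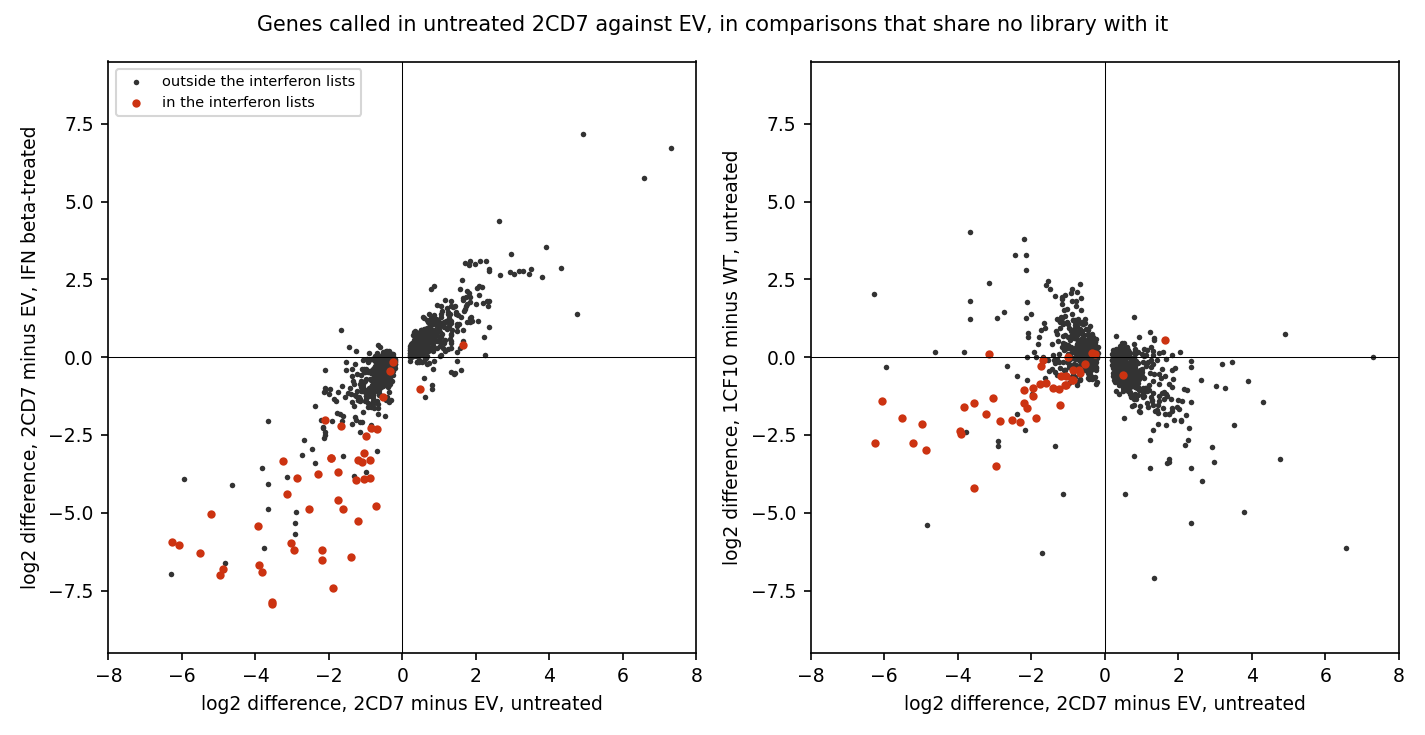
Log2 differences of the 1037 genes called in untreated 2CD7 minus EV (horizontal axes) against treated 2CD7 minus EV (left, vertical axis) and untreated 1CF10 minus WT (right, vertical axis), with interferon list genes in red. On the left nearly all points keep their sign, and on the right the interferon genes lie mostly below 0, while more black points were called with the opposite sign than with the same sign.

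A test of the change in the difference between lines with treatment called 31 genes in the positive direction (0.265%) and 208 in the negative direction (1.78%). Ccl2 reversed: it was higher in untreated 2CD7, and under treatment it stood at 116, 120 and 133 CPM in 2CD7 and 146, 168 and 164 CPM in EV (-0.43 ± 0.09, adjusted p = 0.000268). Its 2CD7 level was thus nearly the same with and without treatment, and its EV level was higher with treatment. Stat3, a mediator of interleukin-6 family signals, was higher in untreated 2CD7 (54.5, 61.8 and 60.4 CPM against 45, 36.1 and 44.7 CPM) and lower in treated 2CD7 (-1.02 ± 0.11, adjusted p = 8.85e-12). The untreated call for Stat3 was lost without EV library 2 (adjusted p = 0.0522).

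Called genes were unevenly placed on the chromosomes. Chromosome 14 held 80 of the 468 higher genes (17.1%) with 3.45% of tested genes, and chromosome 18 held 79 of the 569 lower genes (13.9%) with 2.68% of tested genes. Smaller departures were seen on chromosome 11, with 12.8% of higher genes and 3.69% of lower genes for 8.09% of tested genes. Chromosome 1 held 2.99% of higher and 10.5% of lower genes (5.86% of tested genes), and chromosome 12 held 7.73% of lower genes (3.56% of tested genes). Among genes with an average log2 CPM above 4, the median difference was 0.24 on chromosome 14 (260 genes, 87.7% positive) and -0.26 on chromosome 18 (209 genes, 24.9% positive), against -0.01 over 7729 such genes. The chromosome 18 median of 2CD7 was 0.01 against WT and -0.01 against 1CF10, so EV stood apart there. For chromosome 14 these medians were 0.11 against WT and 0.24 against 1CF10. Psme1, Psme2, Bmp4, Rps24 and Rpl15 are on chromosome 14 and rose, while Irf9 and Plau are on the same chromosome and fell. Hbegf, Rps14 and Tubb6, called lower, are on chromosome 18, as are Lox and Gata6, called higher. The share of these shifts in the gene results was not tested. Counted outside chromosomes 14 and 18, 31 of 53 interferon effectors were lower and 6 of 9 mesothelial markers higher. Of the MAPK feedback and immediate early genes counted so, 7 of 26 were lower. Genes on chromosomes 1, 11 and 12 were kept in these counts.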

How the data were processed

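The values analysed were counts of UMIs per gene in 24 libraries. Per the labels' protocols, poly(A) priming of 20 ng RNA added a sample index (8 bp) and a UMI (10 bp), samples were pooled before amplification, and read pairs of 19 and 101 bp were sequenced; the authors deposited raw UMI counts per Ensembl gene. The submitters' processing notes name the GRCm38 build, edgeR 3.36.0, limma 3.50.0 and cutadapt 3.0, with no aligner stated. Of 24614 gene identifiers, 24538 matched the GENCODE M21 annotation.

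Genes passing filterByExpr (minimum count 10, minimum total 15; 11698 genes, 99.5 to 99.58% of UMIs) were fitted with edgeR 4.0.16 (R 4.3.3; TMM scaling, robust quasi-likelihood F test) over all 24 libraries with 8 group means and 16 residual degrees of freedom. P-values were adjusted by Benjamini-Hochberg over all tested genes, with a threshold of 0.05. Log2 differences are 2CD7 minus EV with the SE from the F statistic. CPM values are UMIs scaled to the library total. For genes with 0 UMIs in a group, folds are bounds against 3 UMIs over the group; with 1 to 3 UMIs, ratios have exact 95% intervals that cover counting error only.

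The comparison, gene lists and members were chosen with earlier results of these data known. The rule for named genes took Ifnar1, Ifnar2, Trp53 and Brca2, the 15 largest called changes per direction at an average log2 CPM of at least 1, genes at 0 UMIs in a group with at least 30 UMIs in the other, and up to 4 called members per list and direction with any member whose failure to pass is stated; other names were chosen after their values were seen, and some genes are not reported here. Alternatives were DESeq2 1.42.0, limma-voom 3.58.1, another scaling, other filters, thinning, a replicate block, only the compared groups, and leaving out each library. On simulated counts with known changes for this comparison (11637 genes), edgeR recovered 57% of 1.5-fold, 90% of 2-fold and 95% of 4-fold changes and called 8 of 11437 unchanged genes. The counts were drawn from edgeR's own fitted model, so these rates hold only as far as that model does. Changed genes were drawn from those with an expected count of at least 10 in EV. Changes in genes near 0 UMIs in EV were not covered.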

Additional observations from a re-analysis of the deposited data

Results flagged for a closer look

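For 19 named genes the difference between 2CD7 and EV changed with IFN beta, by a test of the treated minus the untreated difference (edgeR, adjusted p below 0.05, log2 scale). In 17 of them the change was negative. Interferon pathway genes that were already lower in untreated 2CD7 showed the largest changes: Ifi203 (-5.02), Ifi204 (-2.88), Ifih1 (-2.85) and Ddx58 (-2.04), with B2m at -0.71. The untreated call of Ifi203 was lost without EV library 3 (adjusted p = 0.255), 2CD7 library 2 (0.0576) or 2CD7 library 3 (0.0848). It was also lost with limma-voom (0.0845).

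Genes that were higher in untreated 2CD7 and lost or reversed that difference under treatment were Ccl2 (-2.02), Ccl7 (-1.81), Stat3 (-1.50), Id1 (-0.91), Psme1 (-0.63), Nectin2 (-0.59) and Psme2 (-0.56). Ccl7 stood at 18.8, 18.2 and 23.1 CPM in treated EV and 19.5, 12.8 and 12.2 CPM in treated 2CD7, ranges that overlap (adjusted p = 0.162). Psme1 was level in treated cells (adjusted p = 0.889).

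Genes of growth, matrix and metabolism that were lower in untreated 2CD7 and differed further under treatment were Hk2 (-1.05), Mmp13 (-0.99), Ccn2 (-0.88), Ankrd1 (-0.68) and Ccnd2 (-0.53). Hk2, the hexokinase of glucose uptake, stood at 147, 184 and 166 CPM in treated EV and 74.4, 56.7 and 69.4 CPM in treated 2CD7. Its untreated call was lost without any of 5 libraries (adjusted p from 0.0899 to 0.198). That call was also lost with DESeq2 (0.0947), without the filter on low counts (0.0671) and after thinning (0.0753). The change was positive for Peg3 (0.74), an imprinted gene, and for Cxcl12 (0.70), whose untreated difference was no longer called under treatment (adjusted p = 0.238).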

How the results depend on the processing

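With DESeq2 the untreated comparison of 2CD7 with EV called 337 genes higher and 417 lower, and with limma-voom 441 and 539; leaving out each library gave 334 to 435 higher and 383 to 491 lower, and no alternative moved either count by more than 1.5 times. The count of 2CD7 against WT was less stable: 314 genes were higher when only the compared groups were fitted, 136 were lower with DESeq2, and without each library in turn the counts ran from 67 (without WT library 3) to 198 higher and from 96 (without 2CD7 library 1) to 218 lower. Against 1CF10, 439 genes were lower with DESeq2, and 425 (without 2CD7 library 2) to 517 without each library. The positive changes with treatment numbered 17 with DESeq2 and 20 (without treated 2CD7 library 3) to 36 without each library. The cause was not tested. Replicate numbers do not pair the samples by the labels, and the mean correlation of same-numbered EV and 2CD7 libraries was 0.0894 (0.0675 to 0.111, 3 pairs), although each of the 6 libraries was closest to its own number; with the number as a replicate block, 483 genes were higher and 586 lower, and of the named genes Igtp alone lost its call. Of 162 named genes that were called, 44 lost the call under at least 1 alternative, 43 of them when a library was left out. Genes that were not called changed sign: Ifnar2 to -0.07 without 2CD7 library 1 and -0.08 without EV library 2 (-0.08 to 0.39 over the libraries left out), and Trp53 to -0.04 without 2CD7 library 3 and -0.15 without EV library 1 (-0.15 to 0.26). Depth limits the genes near 0 UMIs, where folds are bounds or have wide intervals.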

Other observations

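Gene families picked after their values were seen are given as counts, beside 4.00% higher and 4.86% lower over all tested genes. Of 13 tested tetraspanins, membrane organisers, 5 were higher and none lower, with a median of 0.32. Tspan8 stood at 126, 113 and 116 CPM in EV and 189, 176 and 202 CPM in 2CD7 (0.67 ± 0.08, edgeR adjusted p = 1.03e-09). Tspan32 stood at 16.1, 17.8 and 18.3 CPM against 30.5, 43.3 and 35.1 CPM (1.05 ± 0.18, adjusted p = 2.72e-05), and Tspan15 differed by 0.69 ± 0.14. Tspan14 lost its call with DESeq2 (adjusted p = 0.062) and without 2CD7 library 3 or EV library 2. Tspan3 lost its call with DESeq2 (0.11), with limma-voom (0.0637) and without 2CD7 library 2, EV library 1 or EV library 3. Among 9 annexins, calcium-dependent membrane binders, 3 were higher, with a median of 0.04: Anxa6 rose by 1.12 ± 0.15 (22.5, 24.3 and 24.8 CPM in EV, 51.3, 50 and 55.2 CPM in 2CD7), and Anxa8 (0.86 ± 0.07) and Anxa7 (0.43) lie on chromosome 14. Of 23 semaphorins, plexins and neuropilins, 3 were higher, those named in the report. Galectins had 2 of 7 higher and 2 lower, Kruppel-like factors 2 of 10 higher and 2 lower, and dual-specificity phosphatases 1 of 15 lower.

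Prostaglandin synthesis held a further lower gene of the same placement as Areg. Ptgs2, the inducible cyclooxygenase, stood at 75.9, 69.8 and 61.4 CPM in EV and 32, 29.5 and 26.8 CPM in 2CD7 (-1.23 ± 0.14, adjusted p = 5.56e-09), and averaged 31.1 CPM in WT and 70.2 CPM in 1CF10. Sprr1a, a cornified envelope protein, averaged 97.2 CPM in WT and 360 CPM in 1CF10, with 232, 220 and 231 CPM in EV and 114, 97.9 and 94.7 CPM in 2CD7 (-1.15 ± 0.08, adjusted p = 1.56e-16). Isyna1, the first enzyme of inositol synthesis, went the other way, at 94.3, 96.5 and 108 CPM in EV and 201, 222 and 219 CPM in 2CD7 (1.09 ± 0.09, adjusted p = 3.9e-15). For these 3 genes no EV library overlapped a 2CD7 library.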
